A study of Mus musculus with 12 samples.

Results

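Eicosanoids are short-lived lipid signals made from arachidonic acid, and macrophages are a major source of them. Cytosolic phospholipase A2, encoded by Pla2g4a, frees arachidonic acid from membranes. In the prostanoid branch the cyclooxygenases (Ptgs1, mostly constitutive, and Ptgs2, inducible) make prostaglandin H2, the microsomal synthase encoded by Ptges turns it into prostaglandin E2 (PGE2), and the receptors EP2 (Ptger2) and EP4 (Ptger4) sense PGE2 through cyclic AMP. In the leukotriene branch 5-lipoxygenase (Alox5) works with its activating protein (Alox5ap) to make leukotriene A4, which Lta4h converts to leukotriene B4, a neutrophil attractant, and Ltc4s to leukotriene C4. These 10 genes were chosen by symbol, as rows of a count table of 24421 symbols, and all 10 were found in it.

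Macrophages were derived from the bone marrow (BMDMs) of C57BL/6 mice, grown for 5 days in M-CSF and then exposed for 4 hours. Each of 3 mice (A, B and C) gave 1 library to each of 4 groups, namely DMSO solvent with ovalbumin alone (DMSO Ova), DMSO with ovalbumin-IgG immune complex (DMSO IC), the BET bromodomain inhibitor I-BET151 at 5.0 µM with ovalbumin (iBET Ova), and the inhibitor with immune complex (iBET IC). The labels put the solvent at 5% and describe drug and stimulus as simultaneous, whereas the study's methods add the drug first. IC cross-links Fc gamma receptors, and the comparisons asked how these genes respond to that signal and to the inhibitor. In bulk RNA, fewer cells of a type and less RNA per cell cannot be told apart.

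Total counts ranged from 7.55 to 17.4 M per library. The DMSO Ova library of mouse A stood apart, with 77.4% of its counts on the ribosomal precursor Rn45s against 1.41% to 7.83% in the other 11, which left it 1.77 M counts elsewhere and made 3 counts worth 1.54 CPM (counts scaled to a common library size, TMM-normalized throughout). The summed level of 7 macrophage markers lay between 6109 and 8361 CPM in every library, and was higher with iBET in every mouse under both stimuli. It was 6442 to 7487 CPM in DMSO Ova and 7051 to 8338 in iBET Ova. With IC it was 6109 to 7057 CPM in DMSO and 7662 to 8361 in iBET. The 8 mast cell markers summed to at most 0.662 CPM, with Cpa3, Mcpt4, Tpsb2, Cma1, Fcer1a and Mrgprb1 at 0 counts in all 12 libraries.

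Of the 10 genes, 9 passed the filter on low counts, and Ltc4s did not. Per kilobase of exon, Alox5ap was by far the most abundant, at a mean of 271 CPM per kb over the 12 libraries, followed by Lta4h at 12.7, Pla2g4a at 8.90 and Ptger4 at 4.70 CPM per kb. The other 6 lay between 0.338 (Ptger2) and 1.46 CPM per kb (Ptgs2). Neighbours in this order overlapped in their ranges over the libraries, except Alox5ap with Lta4h, and Ptger4 (lowest 3.79 CPM per kb) with Ptgs2 (highest 3.62 CPM per kb).

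**Figure D1:**
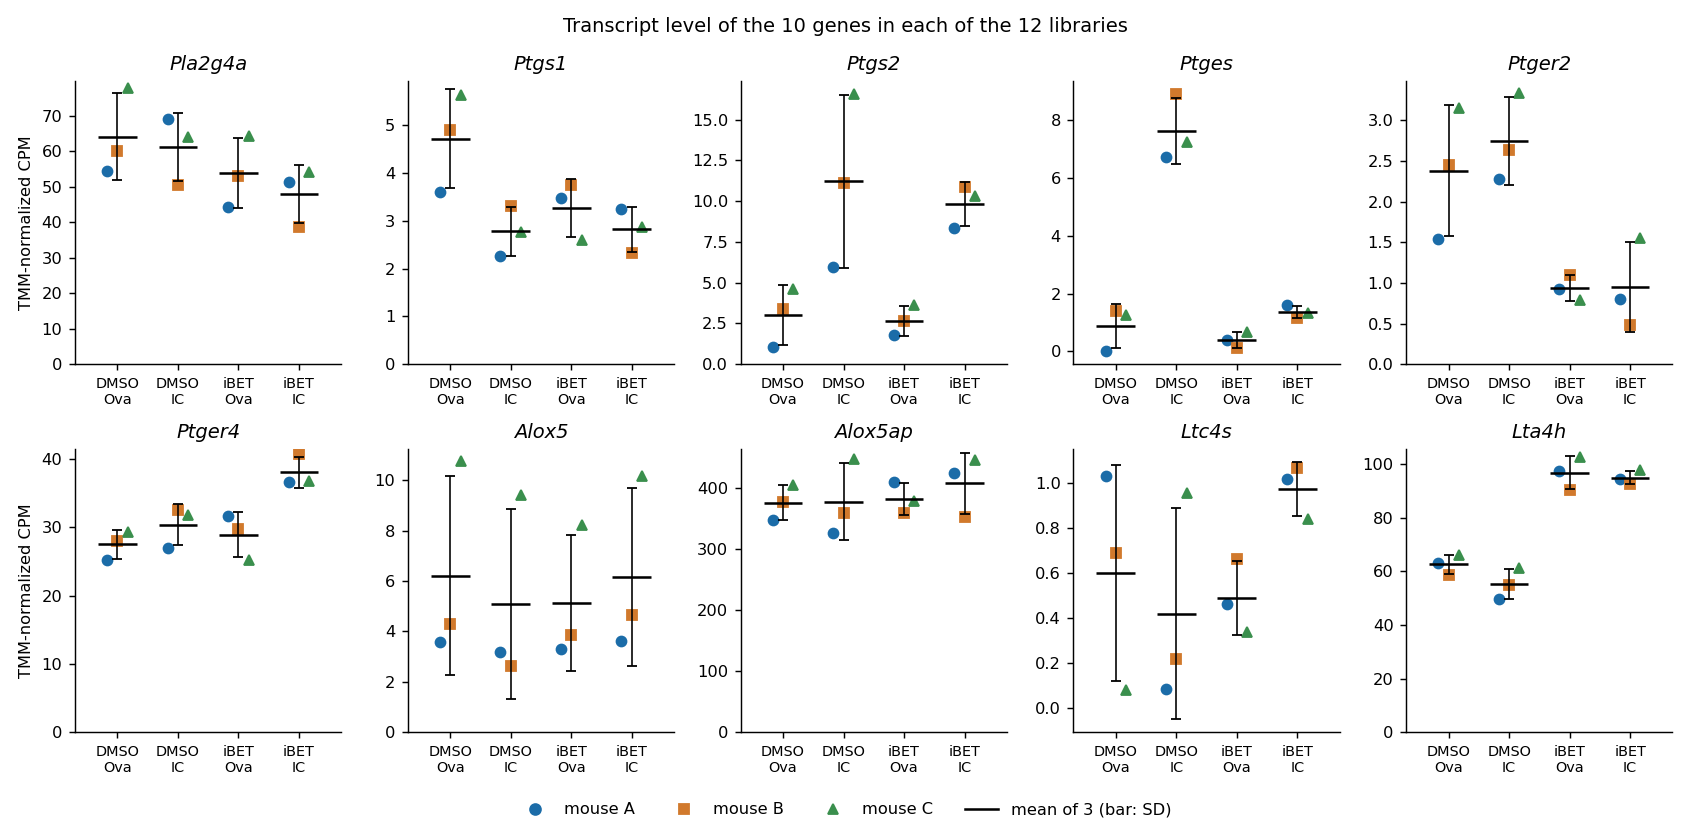
TMM-normalized CPM (vertical axes, 1 scale per gene) of the 10 genes in each library, by group. Points are libraries with 1 symbol per mouse, lines are means of 3 and bars are SDs. Ptges stands out in DMSO IC, Ptgs2 is higher in both IC groups, Ptger2 is lower and Lta4h higher in both iBET groups, and Alox5 is highest in mouse C in every group.

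Differences were tested with edgeR, and a gene counts as called where its p, adjusted over the 11468 genes that entered the test, was under 0.05. Pla2g4a, the gene of the enzyme that opens both branches, was not called in any comparison. Its level was 54.4, 60.2 and 77.8 CPM in DMSO Ova (mice A, B and C), 69.0, 50.6 and 64.2 in DMSO IC, 44.4, 53.2 and 64.2 in iBET Ova, and 51.3, 38.8 and 54.2 in iBET IC. The groups overlapped in every comparison. It was lower with iBET in 3 of 3 mice under either stimulus, by log2 fold changes of -0.27 (SE 0.18, adjusted p = 0.299) with Ova and -0.35 (SE 0.18, adjusted p = 0.157) with IC, neither of which passed the test.

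Of the cyclooxygenase genes, Ptgs2 was higher and Ptgs1 lower with IC in DMSO in 3 of 3 mice, and neither difference passed in the edgeR fit of all 12 libraries with group as its 1 factor. Ptgs2 was at 1.03, 3.37 and 4.64 CPM in DMSO Ova and at 5.98, 11.1 and 16.6 CPM in DMSO IC. With iBET it was at 1.77, 2.65 and 3.61 CPM in Ova and at 8.33, 10.9 and 10.3 CPM in IC. Every IC library was thus above every Ova library of its arm. The fold with IC was 3.14 in DMSO (log2 1.65, SE 0.41, adjusted p = 0.0853) and 3.71 in iBET (log2 1.89, SE 0.41, adjusted p = 0.112), higher in 3 of 3 mice in each arm. When mouse was added as a block, which takes out the differences between animals, both changes passed, at log2 1.74 (SE 0.25, adjusted p = 0.00234) and 1.95 (SE 0.24, adjusted p = 0.00148). DESeq2 also called both, at adjusted p = 0.0061 and 0.0017, and so did edgeR when the mouse A library of DMSO IC was left out (adjusted p = 0.0150 and 0.0172) or all of mouse A (0.0063 and 0.0093). In each arm these were the only calls among 12 fits with 1 library left out and 3 with 1 mouse left out. Without mouse B the rise in DMSO had an adjusted p of 0.915. Of 8 other settings, the block and DESeq2 included, 4 called the rise in DMSO and 5 that in iBET. With only the compared groups, the rise in DMSO was not called (adjusted p = 0.381). The spread in DMSO followed the mouse, with A lowest and C highest under both stimuli.

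iBET left no difference in Ptgs2 past the test, at log2 -0.44 (95% interval -1.41 to 0.54, adjusted p = 0.496) in Ova and -0.19 (-0.98 to 0.59, adjusted p = 0.710) in IC. The IC response of Ptgs2 in iBET minus that in DMSO was 0.24 on the log2 scale (SE 0.57, unadjusted p = 0.680). Ptgs1 was at 3.60, 4.91 and 5.64 CPM in DMSO Ova and at 2.27, 3.30 and 2.76 CPM in DMSO IC. All 3 IC libraries were below the Ova libraries, at log2 -0.84 (SE 0.25, unadjusted p = 0.00498, adjusted p = 0.149). A block for mouse left it short of the threshold as well (adjusted p = 0.118). In iBET its ranges overlapped, at 3.47, 3.75 and 2.59 CPM with Ova and 3.26, 2.33 and 2.88 CPM with IC. With Ova, the iBET libraries were lower in 3 of 3 mice (log2 -0.60, SE 0.24, adjusted p = 0.0829). Of all the alternatives, this passed only when the mouse A library of DMSO Ova was left out (log2 -0.73, adjusted p = 0.0482). With mouse as a block it did not pass (adjusted p = 0.0851).

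Ptges, the inducible PGE2 synthase gene, rose with IC in DMSO and fell with iBET under IC. Its level was 0, 1.38 and 1.24 CPM in DMSO Ova and 6.73, 8.91 and 7.24 CPM in DMSO IC. With iBET it was 0.386, 0.110 and 0.677 CPM in Ova and 1.60, 1.16 and 1.32 CPM in IC. The 3 DMSO IC libraries thus stood above the other 9, which all lay under 2 CPM. In DMSO, IC raised Ptges 6.48-fold (log2 2.70, SE 0.40, adjusted p = 0.0055, 3 of 3 mice), from 0.875 ± 0.760 to 7.63 ± 1.14 CPM (SD, n = 3). Under IC, iBET lowered it 5.45-fold (log2 -2.45, SE 0.36, adjusted p = 0.00027, 3 of 3 mice), to 1.36 ± 0.222 CPM.

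The Ptges rise with IC in DMSO rested on few counts, 0 to 18 per DMSO Ova library and 76 to 81 per DMSO IC library. It held when the mouse A library of DMSO Ova was left out (log2 2.50, adjusted p = 0.0059) and with any other single library omitted, but not without mouse B (log2 2.82, adjusted p = 0.400) or mouse C (log2 2.79, adjusted p = 0.152). In iBET the IC libraries were again above the Ova libraries in 3 of 3 mice (log2 1.80, SE 0.51, adjusted p = 0.267). The difference between the arms was -0.89 on the log2 scale (95% interval -2.43 to 0.64, unadjusted p = 0.231), so a smaller IC response of Ptges in iBET was not shown. In Ova, iBET lowered Ptges by log2 -1.55 (SE 0.55, adjusted p = 0.0467), but in 2 of 3 mice only, with overlapping ranges of 0 to 18 and 1 to 6 counts. The mouse that went the other way was A, whose shallow DMSO Ova library held 0 counts, with 3 counts worth 1.54 CPM, so its direction is uncertain. The call was lost with mouse as a block (adjusted p = 0.0520). Of 12 fits with 1 library left out it held in 3, among them the fit without that shallow library (log2 -1.78, adjusted p = 0.0132).

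Of the 9 genes tested, 1 was called with IC in DMSO (Ptges), where 1.22% of all 11468 genes tested were called and 0.732% were called higher. With mouse as a block 2 were called (Ptges and Ptgs2), while the number called among all genes rose from 140 to 315. With IC in iBET none was called by edgeR with group as the 1 factor, against 0.349% of all genes, and 3 had an unadjusted p under 0.05, against 7.50% of all genes. In that arm Ptgs2 was called with mouse as a block, with a surrogate variable, with the libraries of the compared groups alone and by DESeq2. The 2 groups did not overlap for 3 of the 9 in each arm, Ptgs1, Ptgs2 and Ptges in DMSO and Ptgs2, Ptges and Ptger4 in iBET, against 15.3% and 18.9% of all genes. The median log2 fold change of the 9 was 0.00 in DMSO and 0.09 in iBET, beside -0.01 for all genes in both arms. For the difference between arms no member was called by edgeR or DESeq2, nor had an unadjusted p under 0.05 in either, and 0% of all genes were called, with 2.55% at an unadjusted p under 0.05.

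**Figure D2:**
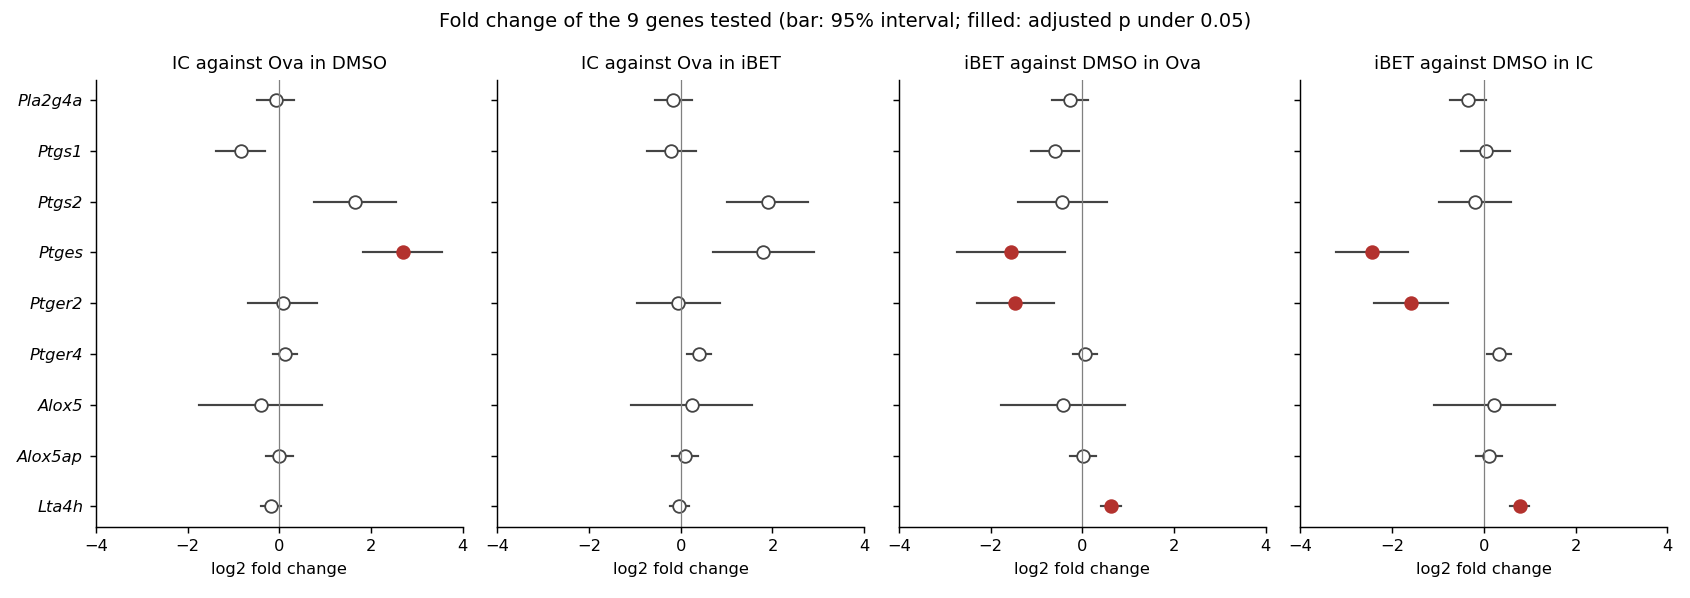
Log2 fold change (horizontal axes) of the 9 genes tested in the 4 comparisons, with 95% intervals as bars. Filled points had an adjusted p under 0.05. Ptges is filled in 3 panels, Ptger2 and Lta4h in both iBET panels, and the intervals of Alox5 are the widest in all 4.

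The ratio of 2 genes within a library does not depend on how libraries are scaled. Counts of Ptgs2 per kb of exon were 0.242, 0.583 and 0.698 of those of Ptgs1 in DMSO Ova and 2.23, 2.86 and 5.09 in DMSO IC. With iBET the ratio was 0.433, 0.599 and 1.18 in Ova and 2.17, 3.96 and 3.04 in IC. Ptgs2 thus exceeded Ptgs1 in all 6 IC libraries and in 1 of the 6 Ova libraries. The ratio of Ptges to Ptgs2 was 1.31, 0.934 and 0.509 in DMSO IC, and between 0 and 0.477 in the other 9 libraries. In iBET IC it was 0.224, 0.125 and 0.149, beside 0.253, 0.0485 and 0.218 in iBET Ova. The iBET Ova ratios rest on 1 to 6 Ptges counts per library, too few to show whether IC changed the ratio in iBET. In the mouse A library of DMSO Ova the ratio of 0 rests on 0 Ptges and 2 Ptgs2 counts. These ratios are a description and were not tested.

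**Figure D3:**
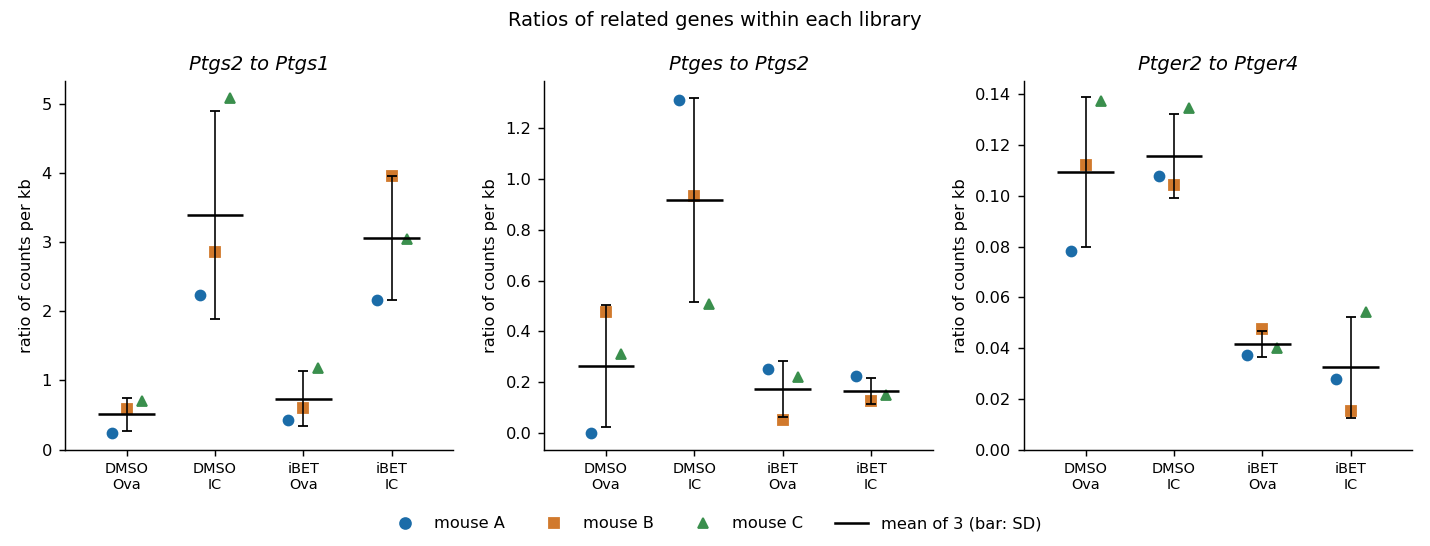
Ratio of counts per kb of exon (vertical axes) for 3 pairs of related genes within each library, by group. Points are libraries with 1 symbol per mouse, lines are means of 3 and bars are SDs. Ptgs2 to Ptgs1 is between 2.17 and 5.09 in the IC groups, Ptges to Ptgs2 is highest in DMSO IC, and Ptger2 to Ptger4 is lower in both iBET groups.

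Ptges and Ptgs2 were each other's most alike member over the 12 libraries, and the 250 bases before their RefSeq starts are shown because both were higher with IC in every mouse and Ptges was called lower with iBET. Capitals mark matches to the letters searched, on either strand (GC box GGGCGG in both, and the C/EBP letters TTGCNNAA, found as TTGCGCAA, in Ptgs2). Ptges lies on the minus strand of chromosome 2 and this window is chr2:30903298-30903547 (GRCm38.p6, printed 5′ to 3′ along the gene), inside the longer GENCODE gene and outside its exons. Ptgs2 lies on the plus strand of chromosome 1 and its window is chr1:150099781-150100030, of which 183 bases are also exon of the antisense gene Ptgs2os.
Ptges: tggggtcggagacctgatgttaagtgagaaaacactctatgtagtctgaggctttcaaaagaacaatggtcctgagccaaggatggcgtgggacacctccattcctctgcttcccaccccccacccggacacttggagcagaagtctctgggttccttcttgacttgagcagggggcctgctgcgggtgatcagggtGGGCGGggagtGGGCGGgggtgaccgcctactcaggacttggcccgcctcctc
Ptgs2: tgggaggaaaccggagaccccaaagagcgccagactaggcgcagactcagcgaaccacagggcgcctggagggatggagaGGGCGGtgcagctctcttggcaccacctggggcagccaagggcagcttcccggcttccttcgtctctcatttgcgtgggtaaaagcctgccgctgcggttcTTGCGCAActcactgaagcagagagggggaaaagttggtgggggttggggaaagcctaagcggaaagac
A GC box was in 32.7% of 32851 such windows and the C/EBP letters in 9.56%. The windows of Alox5 and Ptger4 held a GC box as well, so 4 of the 9 members with a window had 1 or more. The NF-kB letters (GGGA, any 4 bases, then CC), in 17.6% of windows, were in neither window printed here but in those of Alox5 and Lta4h. The letters TGACGTCA (CRE), TGANTCA (AP-1), CACGTG (E-box) and GCGNGGGCG (Egr) were in none of the 9 members' windows. The TATA box letters TATAAA, in 12.4% of windows, were found for Pla2g4a only. The match was on the opposite strand, in a window inside the gene (chr1:149922440-149922689). The window next to its GENCODE start (chr1:149961291-149961540) held none. Bases outside these windows were not searched. Pla2g4a and Ptgs2 are neighbours on chromosome 1, with 138.7 kb and no protein-coding gene between them.

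Of the PGE2 receptor genes, Ptger2 fell with iBET under both stimuli. It was at 1.54, 2.45 and 3.15 CPM in DMSO Ova, 2.27, 2.64 and 3.34 CPM in DMSO IC, 0.926, 1.10 and 0.790 CPM in iBET Ova, and 0.801, 0.484 and 1.56 CPM in iBET IC. Each iBET group lay below its DMSO group without overlap. Ptger2 was 2.75-fold lower with iBET in Ova (log2 -1.46, SE 0.39, adjusted p = 0.0132) and 3.00-fold lower in IC (log2 -1.59, SE 0.37, adjusted p = 0.0056), in 3 of 3 mice each. Counts were low, from 3 to 38 per library. The change in Ova held when the mouse A library of DMSO Ova was left out (log2 -1.61) but was lost when that of mouse C was left out (log2 -1.23, adjusted p = 0.0741), and without mouse B or C, and the change in IC was lost without mouse B (log2 -1.32, adjusted p = 0.103). IC did not change Ptger2 past the test in either arm, at log2 0.07 (95% interval -0.68 to 0.83) and -0.05 (-0.97 to 0.86).

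Ptger4 was the more abundant receptor transcript, at 25.2, 28.0 and 29.3 CPM in DMSO Ova, 26.9, 32.5 and 31.7 in DMSO IC, 31.7, 29.8 and 25.3 in iBET Ova, and 36.7, 40.7 and 36.8 in iBET IC. The 3 iBET IC libraries were above the other 9. Against DMSO IC the difference was log2 0.33 (SE 0.12, adjusted p = 0.0513). Blocking on mouse in edgeR brought it past the test at the same log2 value (SE 0.12, adjusted p = 0.0414). A surrogate variable did so too (adjusted p = 0.0393). These were the only 2 calls in 9 such settings, and DESeq2 made no call with or without the block. Of 12 fits with 1 library left out, 1 called it, without the mouse C library of iBET Ova (adjusted p = 0.0415). Without the mouse A library of DMSO IC the adjusted p was 0.228. None of the 3 fits with 1 mouse left out called it (adjusted p from 0.120 to 0.257). Against iBET Ova the difference was log2 0.39 (SE 0.12, unadjusted p = 0.00622, adjusted p = 0.333). Per kb of exon, Ptger2 counts were 0.0784 to 0.137 of those of Ptger4 in the 6 DMSO libraries and 0.0152 to 0.0542 in the 6 iBET libraries. Exons of Ptger4 overlap the protein-coding gene Ttc33 on the opposite strand, and whether reads were counted by strand was not stated. Shorter overlaps with noncoding genes exist for Ptgs1, Ptger2, Alox5ap and Ltc4s.

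In the leukotriene branch, only Lta4h passed the test, and it rose with iBET. Its level was 63.2, 58.7 and 66.0 CPM in DMSO Ova, 49.7, 54.8 and 61.1 in DMSO IC, 97.5, 90.3 and 103 in iBET Ova, and 94.6, 92.6 and 97.7 in iBET IC. The 6 iBET libraries were above the 6 DMSO libraries. The rise was 1.55-fold in Ova (log2 0.63, SE 0.10, adjusted p = 0.00049) and 1.72-fold in IC (log2 0.78, SE 0.10, adjusted p = 8.0e-05), in 3 of 3 mice each. Both rises were called in every alternative run, the omission of each library and of each mouse included. IC left Lta4h within log2 -0.40 to 0.03 in DMSO and -0.24 to 0.18 in iBET (95% intervals).

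Alox5ap was at 326 to 447 CPM in all 12 libraries, with overlapping ranges in every comparison and 95% intervals within log2 -0.28 to 0.39 in all 4. Ltc4s was close to the limit of detection, with 1 to 19 counts per library, 77 in all, and 0.0829 to 1.07 CPM. It had 1 to 9 counts in DMSO Ova, 1 to 10 in DMSO IC, 3 to 6 in iBET Ova and 7 to 19 in iBET IC. The CPM ranges of all groups except iBET Ova and iBET IC overlapped. Ltc4s was below the filter and was not tested.

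The level of Alox5 followed the mouse. It was at 3.60, 4.29 and 10.8 CPM in DMSO Ova, 3.20, 2.64 and 9.44 in DMSO IC, 3.32, 3.86 and 8.24 in iBET Ova, and 3.63, 4.65 and 10.2 in iBET IC. The library of mouse C was the highest in every group, at 9.66 ± 1.10 CPM over its 4 libraries against 3.44 ± 0.211 for mouse A and 3.86 ± 0.876 for mouse B (SD, n = 4). No group comparison of Alox5 passed the test, with adjusted p from 0.650 to 0.969. With mouse as a block none passed either (SE 0.19 to 0.20, adjusted p from 0.197 to 0.675). The summed level of 8 neutrophil markers was likewise highest in mouse C, at 41.2 to 50.7 CPM, against 8.22 to 15.7 CPM in mouse A and 18.6 to 42.5 CPM in mouse B. Ngp was at 12.8 to 17.4 CPM in mouse C, 6.98 to 14.8 in mouse B and 2.05 to 5.71 in mouse A, and Mpo at 1.02 to 1.33 CPM in mouse C and at most 0.230 CPM in the others. The markers did not all follow this order, since Cxcr2 averaged 0.249 CPM in mouse A, 0.199 in mouse B and 0.0860 in mouse C, and Retnlg was highest in mouse B, at 0.102 CPM. None of the 8 was at 0 in all libraries. Their part in the Alox5 level was not tested.

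**Figure D4:**
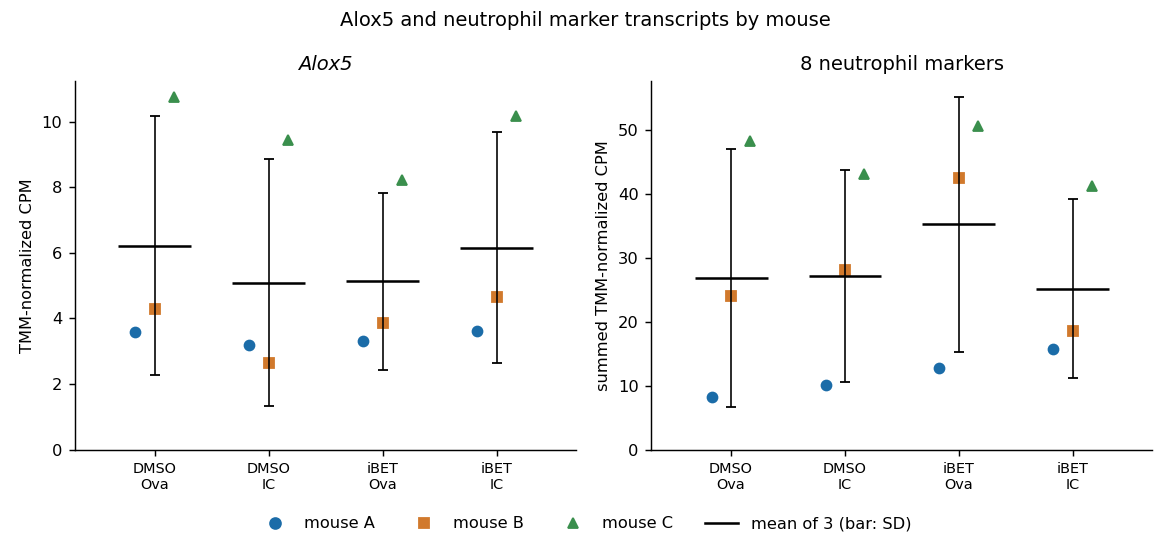
TMM-normalized CPM of Alox5 (left) and summed CPM of 8 neutrophil markers (right) in each library, by group. Points are libraries with 1 symbol per mouse, lines are means of 3 and bars are SDs. Mouse C is highest in all 4 groups in both panels. Mouse B is above mouse A in all 4 groups of the marker panel, by little in iBET IC. In the Alox5 panel it is above mouse A in every group except DMSO IC.

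With iBET, 3 of the 9 genes tested were called in Ova, where 31.3% of all genes were called, and 3 of 9 in IC, where 34.8% were. These were Ptges and Ptger2, lower, and Lta4h, higher, under both stimuli. Among all genes 14.2% were called lower and 17.1% higher in Ova, and 15.8% and 19.0% in IC. The median log2 fold change of the 9 was -0.42 in Ova and 0.04 in IC, beside 0.02 and 0.00 for all genes. The Ova median is the value of Alox5 (SE 0.62, adjusted p = 0.650 in edgeR), whose interval was the widest. The groups did not overlap for 2 of the 9 in Ova (Ptger2 and Lta4h) and for 4 in IC (those and Ptges and Ptger4), against 45.1% and 48.6% of all genes. With mouse as a block 2 were called in Ova and 4 in IC. Without mouse B, without mouse C or without the mouse C library of DMSO Ova, 1 was called in Ova (Lta4h). In the fit of all 12 libraries without the block, the share called was near that of all genes. The counts with the block or an omission were not set beside those of all genes.

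The rest of the pathway was taken as a list of 64 other genes in 7 roles. Of these, 31 were tested, and 33 had too few counts, 13 of them with 0 counts in the 12 libraries. With IC none of the 31 was called in DMSO (2 at an unadjusted p under 0.05) or in iBET (1), by edgeR or DESeq2. With mouse as a block, where 315 of all genes were called with IC in DMSO, 1 of the 31 was called there, Hpgd, whose product inactivates prostaglandins. It was at 2.61 ± 1.11 CPM in DMSO Ova and 0.689 ± 0.263 in DMSO IC (SD, n = 3), at log2 -1.79 (SE 0.44, adjusted p = 0.0821) without the block and -1.80 (SE 0.38, adjusted p = 0.0249) with it. With iBET in Ova it was lower in 3 of 3 mice without overlap, at 1.14 ± 0.305 CPM (log2 -1.02, SE 0.41, adjusted p = 0.0769), and was called once mouse was a block (log2 -1.06, SE 0.35, adjusted p = 0.0311). Hpgd was picked out after its values were seen.

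With iBET, 8 of the 31 were called in Ova (3 higher and 5 lower) and 9 in IC (4 higher and 5 lower), again near the share of all genes. With mouse as a block 10 were called under each stimulus, among them Pla2g5, a secreted phospholipase A2 gene (log2 -1.78, SE 0.66, adjusted p = 0.0492) and Hpgd in Ova and Abcc1, whose product exports leukotriene C4, in IC (log2 -0.30, SE 0.11, adjusted p = 0.0416), which were not called without it. Without mouse B 3 were called under each stimulus, and without mouse C 5. These counts with the block or an omission were not set beside those of all genes. The median log2 fold change of the 31 was 0.02 in Ova and 0.03 in IC. Among receptors, Cysltr1, for cysteinyl leukotrienes, fell in Ova by a log2 value of 1.92 (SE 0.30, adjusted p = 0.00041), with means of 16.6 ± 5.44 CPM in DMSO and 4.52 ± 1.16 CPM in iBET (SD, n = 3). In IC it fell by 1.51 (SE 0.29, adjusted p = 0.0016), the means being 14.2 ± 2.52 and 5.01 ± 1.77 CPM. Ptgir, the prostacyclin receptor gene, had log2 fold changes of -1.21 (SE 0.32, adjusted p = 0.0119) in Ova and -1.13 (SE 0.29, adjusted p = 0.0106) in IC. These were the only receptors on the list to be called, and 2 of the 7 other prostanoid receptors and 2 of the 7 genes of leukotriene export and receptors were tested.

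Of the 10 lipases and phospholipases tested 1 was called without the block, Dagla, whose product makes 2-arachidonoylglycerol. Dagla averaged 16.0 ± 0.973 CPM in DMSO Ova and 5.48 ± 0.865 CPM in iBET Ova, a log2 fold change of -1.56 (SE 0.20, adjusted p = 0.00011). Under IC the log2 fold change was -1.40 (SE 0.19, adjusted p = 0.00016), with 16.2 ± 1.91 CPM in DMSO and 6.14 ± 1.62 CPM in iBET. Of 7 prostanoid synthases tested 3 were called under each stimulus. Fam213b, for a prostaglandin F synthase, rose by log2 1.14 (SE 0.22, adjusted p = 0.0018) and 1.02 (SE 0.21, adjusted p = 0.0022), and Cbr1, a carbonyl reductase gene, by 0.46 (SE 0.15, adjusted p = 0.0338) and 0.49 (SE 0.15, adjusted p = 0.0201). Hpgds, the hematopoietic prostaglandin D synthase gene, was called lower in both, at log2 -0.74 (SE 0.15) and -0.69 (SE 0.15). The other PGE2 synthase genes, Ptges2 and Ptges3, were not called, at log2 0.11 and -0.15 in Ova and 0.33 and -0.13 in IC.

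In the breakdown and transport group, Zadh2, for a prostaglandin reductase, was called in IC (log2 0.50, SE 0.18, adjusted p = 0.0418) and not in Ova (log2 0.42, adjusted p = 0.0991), and the difference between stimuli did not pass the test. Among the other leukotriene genes Cotl1, whose product binds 5-lipoxygenase, rose by log2 0.51 (SE 0.12, adjusted p = 0.0050) in Ova and was called in IC as well, and Dpep3, a dipeptidase gene, was called lower in both at a mean of at most 1.23 CPM in any group. The lipoxin and formyl peptide receptor genes Fpr1 and Fpr2 had too few counts to test.

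**Figure D5:**
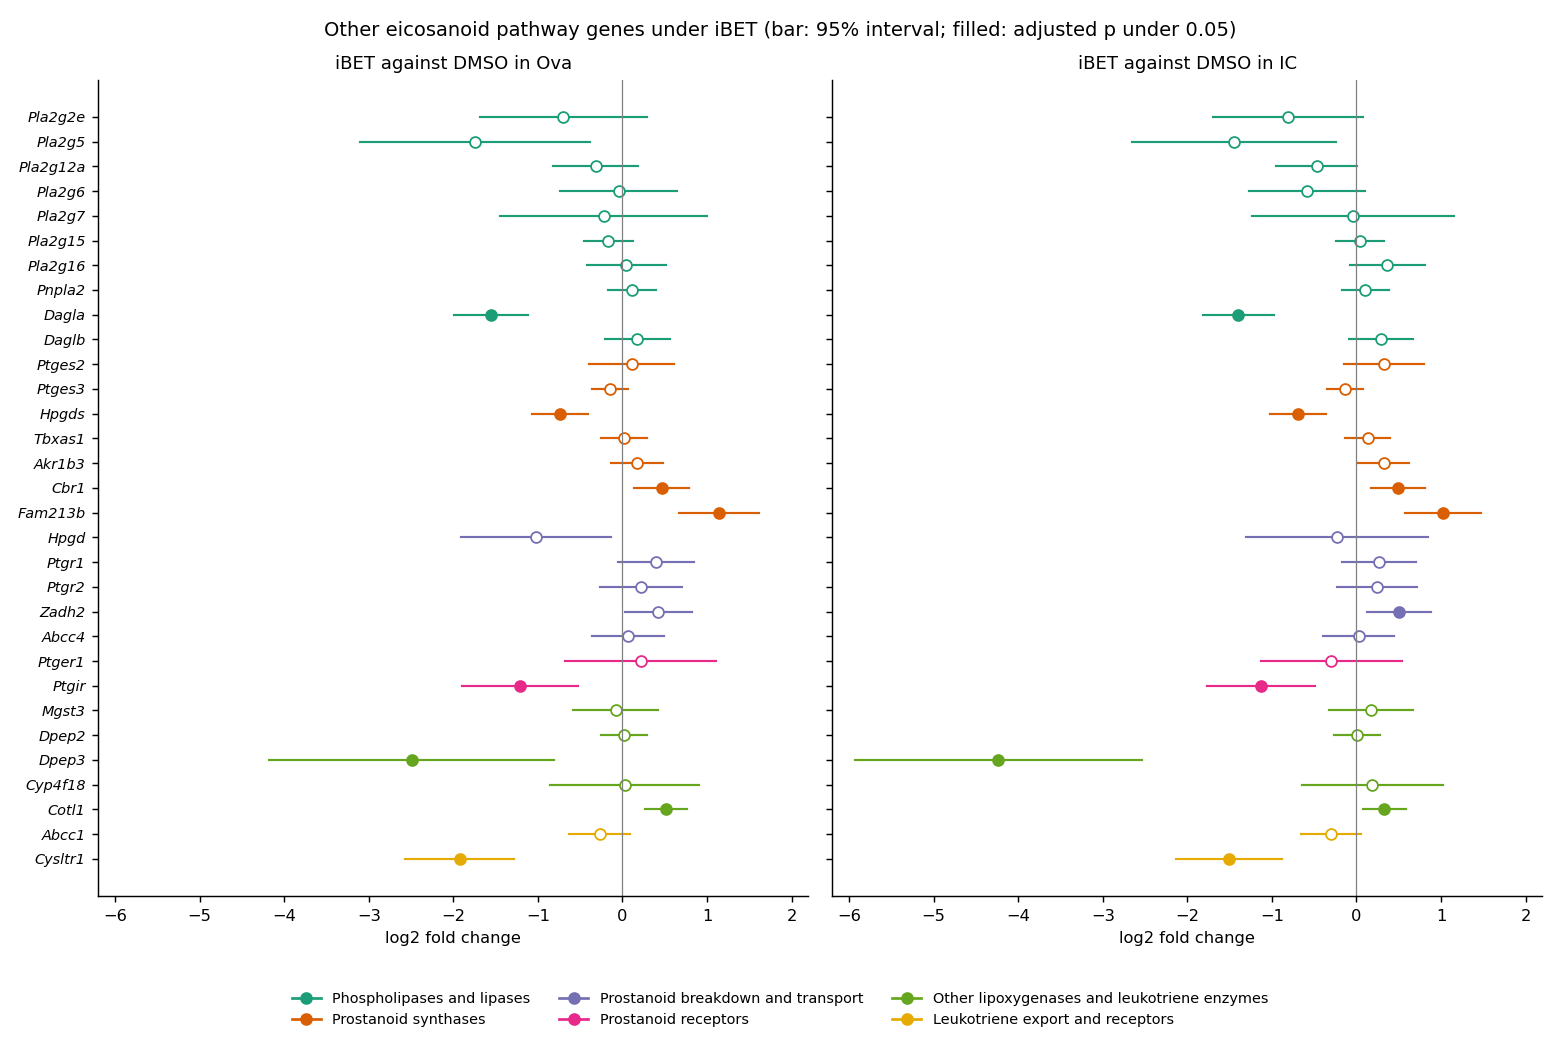
Log2 fold change with iBET (horizontal axes, the same scale in both panels) of the 31 other pathway genes tested, in Ova (left) and IC (right), coloured by role. Bars are 95% intervals and filled points had an adjusted p under 0.05. Cysltr1, Dagla, Ptgir, Hpgds and Dpep3 are filled below 0 in both panels and Fam213b, Cbr1 and Cotl1 above 0.

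Over the 12 libraries, which share their groups and mice, the gene whose log2 CPM was most like that of Ptges was Plaa (Pearson r = 0.97, n = 12), and its most alike member was Ptgs2 (r = 0.81). Ptgs2 was most like Cdc42ep2 (r = 0.94) and Ptger4 most like Ykt6 (r = 0.93). Lta4h was most like Aak1 (r = 0.99) and Ptger2 most like Tmem163 (r = 0.96). For Alox5 it was Spn (r = 0.97), with Alox5ap as the nearest member (r = 0.62), and for Alox5ap it was Rac2 (r = 0.88). Pla2g4a was most like Lsm5 (r = 0.94) and Ptgs1 most like Dab2 (r = 0.87). Each is the highest of the correlations with all other genes tested and is given as a description.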

How the data were processed

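Total RNA from 12 BMDM libraries (4 groups of 3) was sequenced after preparation with a SMARTer pico kit. Per the study's methods and the labels, the authors trimmed reads with Trim Galore, aligned them to mm10 with HISAT2, counted them per gene with featureCounts and deposited the counts as whole numbers per symbol. The annotation and strand setting were not given in the sources used here. The deposited normalized table was not used.

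Genes were kept by filterByExpr (minimum count 10), which left 11468 of 24421. One edgeR 4.0.16 quasi-likelihood model (R 4.3.3, TMM, robust, 1 term per group) was fitted to all 12 libraries and tested on simulated data. P-values were two-sided and Benjamini-Hochberg adjusted over all genes tested, and genes were called at an adjusted p under 0.05. SEs are of log2 fold changes. For single mice, log2 CPM (prior count 2) was subtracted between groups. Counting floors are 3 counts and cover counting error only. No 2 libraries held identical counts.

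Mouse pairs the libraries, since the labels give each library's animal. Over all genes, deviations from group means correlated at -0.07 to 0.54 in the 18 same-mouse library pairs (median 0.26) and had a median of -0.13 in the 36 pairs from different mice.

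The 10 genes, the list of 64 and the cell type markers were chosen with earlier results of these data known. Other pathway genes were named if among the 3 largest rises or falls of a comparison, with 1 direction in 3 of 3 mice, an adjusted p under 0.05 and 50 or more counts per library on average. Hpgd, Hpgds, Dpep3, Pla2g5, Abcc1, Ptges2, Ptges3, Fpr1 and Fpr2 were named outside that rule, after their values were seen. Likeness was the highest Pearson correlation of log2 CPM. Positions and exon lengths came from GENCODE vM21 on GRCm38 and promoters from RefSeq on GRCm38.p6, which held 9 of the 10 genes (not Alox5ap). Alternatives were DESeq2 1.42.0, its size factors in edgeR, other filters, mouse as a block in both tools, 1 surrogate variable (sva 3.50.0), the compared groups alone, removal of Rn45s, and omission of each library and each mouse. The surrogate variable mostly set apart the mouse A libraries of DMSO Ova (-0.848) and DMSO IC (-0.301), its most extreme values.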

Additional observations from a re-analysis of the deposited data

Results flagged for a closer look

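The differences of Alox5 had opposite signs in the 2 arms in every mouse. With IC it was lower in 3 of 3 mice in DMSO, by log2 changes of -0.16, -0.66 and -0.19 in mice A, B and C, and higher in 3 of 3 in iBET, by 0.12, 0.26 and 0.30. Between drug arms, it was lower with iBET in 3 of 3 mice in Ova (-0.11, -0.15 and -0.38) and higher in 3 of 3 in IC (0.17, 0.77 and 0.11). In mouse A the differences from DMSO Ova rest on 7 Alox5 counts in its shallow library, so their signs are uncertain. The difference between the arms was 0.64 on the log2 scale (95% interval -1.25 to 2.53, adjusted p = 1.00), which did not pass the test, and with mouse as a block it was 0.57 (SE 0.27, adjusted p = 1.00). Both comparisons rest on the same 12 libraries and are 1 pattern. No group held more than 3 libraries, so single libraries were not screened for outliers.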

How the results depend on the processing

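Lta4h and Ptges under iBET in IC kept their calls in every alternative that tested them. The number of members called with IC in DMSO (1) became 2 with DESeq2, with mouse as a replicate block in edgeR or DESeq2 and with 1 surrogate variable, and 0 with at least 10 counts in every library (4 members tested) or with only the compared groups, and ranged from 0 to 2 when 1 library or mouse was left out. With IC in iBET (0) it became 1 with DESeq2, with either block, with 1 surrogate variable and with only the compared groups, and ranged from 0 to 1. With iBET in Ova (3) it became 1 with at least 10 counts in every library, was 2 with the block, and ranged from 1 to 4. With iBET in IC (3) it became 1 with at least 10 counts in every library and 4 with the block. The block changed no other member's call than those of Ptgs2, Ptges in Ova and Ptger4 in IC, and the stricter filter removes Ptges, Ptger2, Ptgs1, Ptgs2 and Alox5 by construction. Pla2g4a with iBET in IC was called only by DESeq2 with the block (adjusted p = 0.0452). For the other changes the cause was not tested.

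Directions that turned belonged to changes that were not called. Alox5ap with IC in DMSO turned to -0.0029 with the block, -0.0028 with the block in DESeq2 and -0.051 with the surrogate variable. Alox5ap with iBET in Ova turned to -0.016 with DESeq2 size factors, -0.017 in DESeq2, -0.010 with at least 10 counts in every library, -0.013 with the block in DESeq2, -0.041 with the surrogate variable, -0.025 with only the compared groups and -0.0033 without Rn45s. The surrogate variable also turned Ptgs1 with iBET in IC (-0.00092), Alox5 with iBET in IC (-0.039) and the Ptgs2 difference between arms (-0.0037). Leaving out 1 library or mouse gave, with IC in DMSO, ranges of -0.26 to 0.088 for Pla2g4a, -0.090 to 0.30 for Ptger2, -1.20 to 0.32 for Alox5 and -0.14 to 0.10 for Alox5ap. With IC in iBET it gave -0.34 to 0.012 for Ptgs1, -0.57 to 0.35 for Ptger2, -0.31 to 0.74 for Alox5 and -0.076 to 0.016 for Lta4h. With iBET in Ova it gave -0.086 to 0.20 for Ptger4, -0.92 to 0.30 for Alox5 and -0.11 to 0.085 for Alox5ap. With iBET in IC it gave -0.23 to 0.30 for Ptgs1, -0.53 to 0.21 for Ptgs2, -0.31 to 1.02 for Alox5 and -0.019 to 0.25 for Alox5ap. For the difference between arms it gave -0.25 to 0.061 for Pla2g4a, -0.10 to 0.65 for Ptgs2, -0.70 to 0.29 for Ptger2 and -0.078 to 1.44 for Alox5.

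The low counts of Ptges, Ptger2 and Ltc4s and the shallow DMSO Ova library of mouse A limit the comparisons that use them. DESeq2 size factors moved the median of all genes by at most 0.04 (log2) in any comparison.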
